A study of Drosophila melanogaster with 14 samples.

Results

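Small RNA of whole Drosophila melanogaster embryos was compared between stage 2, labelled 300 min, and stage 3, labelled 530 min. These are 4 of the 14 libraries of a time course of 7 stages, chosen by their stage label, with 2 libraries per stage and 230 min between the labelled times. The labels give no strain, allele or treatment, do not say from what point the minutes were counted, and do not tell if each library is its own collection of embryos. Differences between replicates may therefore be technical. Reads were counted for each mature arm, 5p or 3p, of a miRNA hairpin. Total counts were 32709 and 33399 in the stage 2 libraries and 48151 and 35262 in those of stage 3. Of 466 arms in the table, 157 had at least 1 count in these 4 libraries. The test covered 85 arms, of which 78 had a count here.

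A miRNA is cut from a hairpin whose stem gives a duplex of 5p and 3p strands. One strand, the guide, is usually kept by an Argonaute protein and directs it to matching mRNAs, while the other, the passenger, is mostly degraded. In fly embryos the miR-309 cluster is transcribed from the blastoderm onwards and takes part in removing maternal mRNA, and many other miRNAs come on later with the tissues in which they act. In the usual timetable of the fly embryo, the hours after gastrulation are those in which the germ band extends and shortens. No arm in the table is a known marker of the germ band, so the libraries are called here by their stage numbers. Muscle and let-7 arms were scarce in all 4 libraries. The 2 tested muscle arms, miR-1-3p and miR-133-3p, had 10 and 14 counts in all. The let-7 complex, which acts at metamorphosis, had 8 counts, and let-7, miR-100 and miR-125 together took at most 0.00623% of a library. Nervous system arms had 448 counts and 0.102% to 0.604% of a library, but 320 counts were of miR-315-5p and 107 of miR-124-5p. miR-1000-5p had 14 and miR-87-5p 0. The highest share was that of stage 3 replicate 2, with 183 counts of miR-315-5p against 37 in replicate 1.

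The composition of the libraries was close at the top. As these are bulk samples, fewer cells of a type and less RNA per cell cannot be told apart in any level below. The 5 most abundant arms of each library made up 78.9% to 79.7% of its counts. By mean level, 8 of the top 10 arms and 18 of the top 20 were the same in both stages. miR-286-3p, of the miR-309 cluster, took 57.8% and 57.3% of counts in stage 2 and 59.05% and 57.3% in stage 3. The 14 arms listed of the miR-309 cluster together took 61.1% and 60.6% in stage 2 and 63.8% and 62.2% in stage 3. The other levels below are in CPM, counts set to a common library size, with library sizes adjusted by TMM, a scaling that lines up the bulk of the arms. Because the adjusted library sizes here are below the totals, these values do not sum to the usual total and are read only against each other.

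No arm passed the test between the stages. edgeR's quasi-likelihood test, fitted on all 14 libraries, called 0 of 85 arms (0%) at a Benjamini-Hochberg adjusted p of 0.05, and the lowest adjusted p was 0.115. At an unadjusted p of 0.05 it gave 14 of the 78 arms with counts (17.9%), 7 higher and 7 lower in stage 3. DESeq2 called 2, miR-263a-5p as higher and miR-31a-5p as lower, and gave 13 at the unadjusted p. With the same arms and scaling and 1 library left out, 2 of these 14 arms were again under the unadjusted p without stage 2 replicate 1, 12 without stage 2 replicate 2, 7 without stage 3 replicate 1 and 8 without stage 3 replicate 2. For comparison, the same test called 15 arms over the 140 min from stage 1 to stage 2 and 30 over the shorter step from stage 3 to stage 4. Those neighbouring steps share libraries with the one described here. Of the later steps, that from stage 4 to stage 5 (285 min) had 12 calls and that from stage 6 to stage 7 (140 min) had 0. The step from stage 5 to stage 6 has the same labelled length of 230 min and shares no library, and it also had 0 calls (4 arms at the unadjusted p). The difference between the step described here and that from stage 5 to stage 6 was tested arm by arm. It had 0 of 85 past the threshold (0%) and 6 at the unadjusted p.

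A p that misses the threshold does not show that a level was kept, so stability was read from the interval of each fold change. The whole 95% interval lay within a 2-fold change in either direction for 9 of 78 arms (11.5%). These 9 arms held 79.5% of the counts of stage 2 and 77.1% of those of stage 3. They were mostly abundant, with a median of 18401 CPM against 627 CPM for the other 69, as a narrow interval needs many counts. Of these 9 arms, 5 met the rule with DESeq2 size factors, 5 when scaled to total counts only and 3 with miR-286-3p left out of the scaling. miR-286-3p, miR-10-5p and miR-11-3p met it under all of these, while miR-995-3p, miR-8-3p, miR-10-3p and miR-276a-3p met it with TMM alone. With the same arms and scaling and 1 library left out, 2 of the 9 met it without stage 2 replicate 1, 1 without stage 2 replicate 2, 2 without stage 3 replicate 1 and 2 without stage 3 replicate 2. When the filter and scaling were also redone, 0 met it in the first 3 of these fits and 3 in the last.

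Among these 9, miR-92b-3p, which lies in the 3′ UTR exon of jigr1 (dm6 chromosome 3R, 25651398 to 25651497, plus strand), had 166370 and 148484 CPM in stage 2 and 154128 and 145911 CPM in stage 3. Its libraries overlapped on this scale, and the log2 fold change of stage 3 against stage 2 was -0.07 ± 0.312 (SE), with a 95% interval of -0.72 to 0.58. As a plain share it was 11.7% and 11.9% of the library, then 9.67% and 10.4%, and both stage 3 libraries were the lower ones under each of the 3 other scalings (log2 -0.24 to -0.30). miR-10-5p, from the Hox region between homeotic genes, had 64348 and 57307 CPM, then 64617 and 61029 CPM. Its log2 fold change was 0.05 ± 0.288, with an interval of -0.56 to 0.65, and these libraries overlapped as well, but not with DESeq2 size factors or library size alone, where both stage 3 libraries were lower. Its other arm, miR-10-3p, had -0.17 ± 0.386 and met the rule with TMM but under none of the 3 other scalings. miR-286-3p had 0.19 ± 0.344 (interval -0.53 to 0.91).

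Of the 4 tested arms hosted in the cell cycle genes E2f1 and Cdk2, 2 were among the 9, and the other 2, miR-11-5p and miR-998-5p, were lower without overlap. miR-11-3p, from an intron of E2f1 and known to limit cell death, had 23947 and 21164 CPM, then 28237 and 18708 CPM. The stage 3 libraries lay on both sides of the stage 2 libraries, and the log2 fold change was 0.06 ± 0.360. miR-995-3p, from an intron of Cdk2, had 19140 and 17662 CPM, then 18405 and 15277 CPM (-0.13 ± 0.406), which overlapped with TMM but were lower in both stage 3 libraries under the 3 other scalings. miR-9a-5p, which limits the number of sensory organ precursors, had 21175 and 16656 CPM, then 14632 and 21141 CPM (-0.08 ± 0.369), so the difference between replicates was larger than that between stages. miR-8-3p, of an epithelial and growth-related family, had -0.19 ± 0.379, and miR-276a-3p -0.01 ± 0.469, and both met the rule with TMM alone. The interval of miR-276a-3p, from -0.99 to 0.97, just met the bounds. Just outside them was miR-311-3p of the miR-310 cluster, with -0.16 ± 0.406 and an interval of -1.01 to 0.69.

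**Figure D1:**
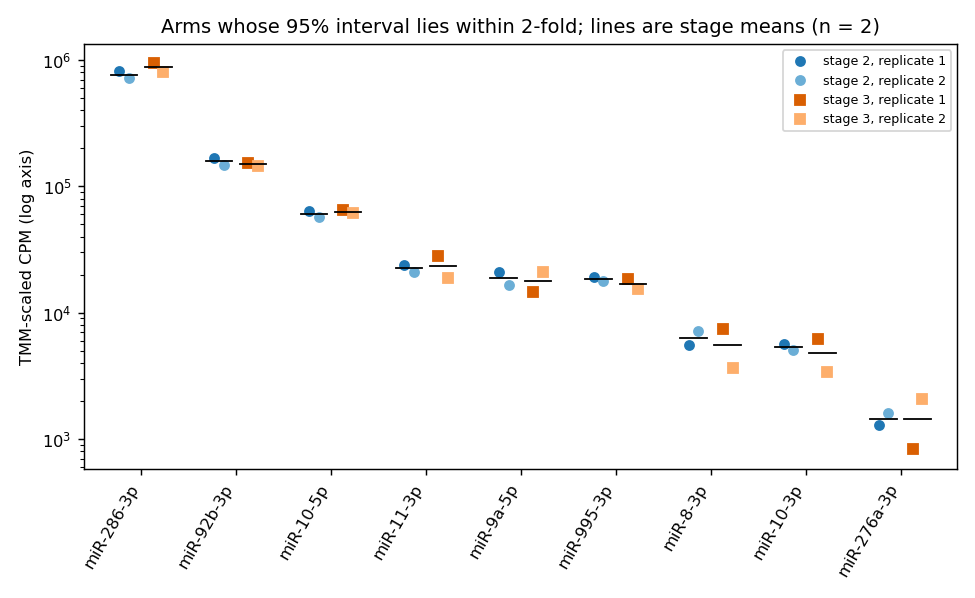
Level of each of the 9 arms whose 95% interval lay within 2-fold, in TMM-scaled CPM on a log axis, with 1 point per library and a line at each stage mean (n = 2). On this scale the libraries of both stages overlap for all 9 arms, and each of the 9 differs more between the stage 3 replicates than between the stage means.

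The second question was which shifts set the libraries of both stages apart. In 36 of 78 arms (46.2%) the libraries did not overlap, 23 with both stage 3 libraries higher (29.5%) and 13 with both lower (16.7%). Some were set apart by few reads. Among the higher ones, miR-281-3p had 1 and 0 counts, then 2 and 2, and miR-2c-5p 2 and 2, then 3 and 7. Among the lower ones, miR-8-5p had 10 and 10 counts, then 10 and 2. An exact permutation test of 2 against 2 libraries cannot give a two-sided p below 0.33, so non-overlap is a description. The split depended on the scaling. It was 20 higher and 21 lower with DESeq2 size factors, 19 and 21 when scaled to total counts only, and 14 and 20 with miR-286-3p left out of the scaling. These scalings moved the median log2 fold change by -0.20, -0.18 and -0.22. Under all 4 scalings the 13 lower arms stayed apart, and so did 13 of the 23 higher ones. Higher and lower below refer to the TMM scale.

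**Figure D2:**
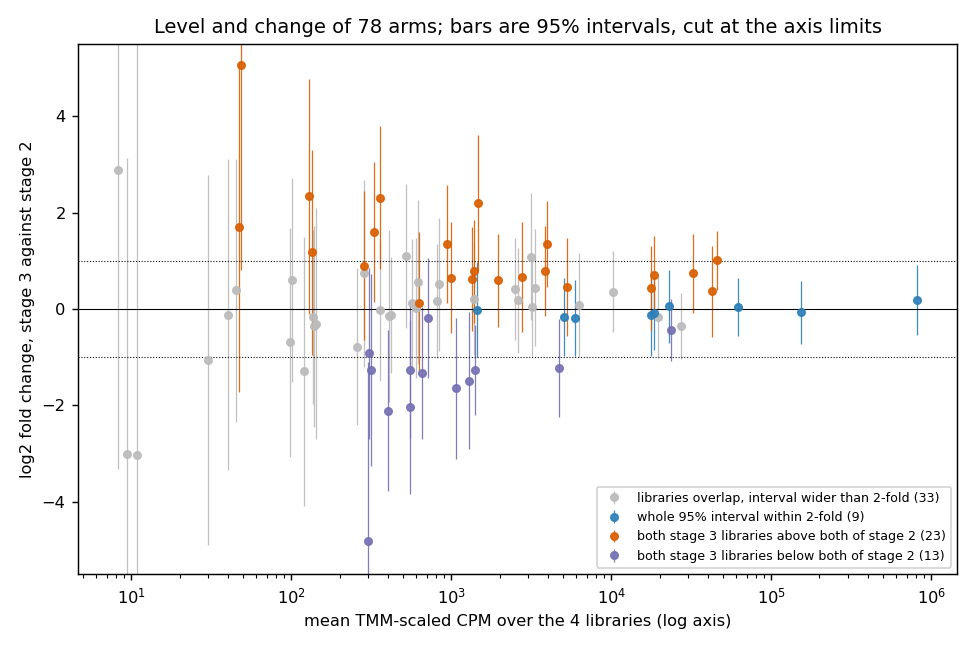
Log2 fold change of stage 3 against stage 2 for the 78 arms with counts, with 95% intervals, against the mean level of the 4 libraries in TMM-scaled CPM on a log axis. The 9 arms with intervals inside the dotted lines at a 2-fold change sit mostly at high levels, and the intervals widen towards low levels, where the largest fold changes lie.

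The most abundant arm without overlap was miR-263a-5p, which protects cells of sensory bristles from death. It had 30702 and 29622 CPM in stage 2 and 60479 and 61388 CPM in stage 3. Both stages were tight and far apart. The fold change was 2.02 (log2 1.01 ± 0.294, adjusted p = 0.115 with edgeR). It passed with DESeq2 (0.81, adjusted p = 0.000361) and in edgeR with only the 4 libraries of these stages (0.95, adjusted p = 0.00708), and over all alternatives its adjusted p ran up to 1. With 1 library left out and the same arms and scaling, the log2 value ran from 0.99 to 1.04. It was 0.38 without stage 3 replicate 1 when the filter and scaling were redone, which moved the median of all arms by -0.75. In shares of the library it was 2.17% and 2.38%, then 3.79% and 4.36%.

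miR-14-3p, a suppressor of cell death and of fat storage, had 1862 and 2608 CPM, then 6091 and 5305 CPM. The stage 3 libraries were both above those of stage 2, and the log2 fold change was 1.35 ± 0.429 (edgeR adjusted p = 0.115). miR-12-5p, an intronic miRNA of Gmap on chromosome X, had 1 and 5 counts, then 18 and 15 counts. At such depth the ratio of pooled counts, 4.97, had a 95% counting interval of 2.06 to 14.5, and the log2 fold change was 2.31 ± 0.709 (adjusted p = 0.115). miR-283-5p of the same intron cluster was also without overlap, at 1602 and 1528 CPM, then 2748 and 1994 CPM, but it overlapped with miR-286-3p left out of the scaling. Other low arms past the unadjusted p and higher in stage 3 were miR-31b-5p (1.60 ± 0.693), the mirtron arm miR-1010-3p (1.35 ± 0.585, but 0.78 without stage 2 replicate 1 and 2.36 without stage 2 replicate 2, with the same arms and scaling) and miR-276b-3p, which had 0 and 0 counts, then 1 and 4.

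In the miR-309 cluster, none of the 7 tested arms passed, and 4 were higher without overlap, where 29.5% of all 78 arms were. With miR-286-3p left out of the scaling only miR-5-5p and miR-5-3p of these 4 stayed apart. All 7 had positive log2 values with TMM, with a median of 0.62 against 0.10 over the 78 arms, but miR-286-3p had -0.01 with DESeq2 size factors and -0.03 when left out of the scaling. The abundant miR-5-5p had 26328 and 22096 CPM, then 38896 and 42162 CPM (0.74 ± 0.390, adjusted p = 0.358). miR-6-3p, known to block cell death genes together with miR-11, had 14940 and 12967 CPM, then 27575 and 18109 CPM (0.71 ± 0.384, adjusted p = 0.358). Both stage 3 libraries exceeded both stage 2 libraries for these arms. With 1 library left out and the same arms and scaling, miR-6-3p ran from 0.38 to 0.98. The largest value in the cluster was that of miR-5-3p, the passenger arm of miR-5, with 14 and 12 counts, then 32 and 95 counts (2.20 ± 0.677, adjusted p = 0.115). Most of its stage 3 counts came from replicate 2, and without that library the value was 0.91, or 1.01 with the same arms and scaling.

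Among the most abundant of the other small shifts, under 2-fold, without overlap and above 500 CPM, 4 arms were higher, and none of them passed. miR-312-3p of the miR-310 cluster, a group of rapidly evolving miRNAs, had 41224 and 33013 CPM, then 49092 and 46869 CPM (0.37 ± 0.452), and overlapped with miR-286-3p left out of the scaling. Its neighbours miR-311-3p and miR-310-3p overlapped. miR-9c-5p, from within grp, which encodes a checkpoint kinase (intron), had 14550 and 15500 CPM, then 19796 and 20782 CPM (0.43 ± 0.414). Replicates of this arm agreed closely, yet the interval of the fold change, -0.43 to 1.30, covered no change, and its libraries overlapped with library size alone or with miR-286-3p left out of the scaling. miR-92a-3p, from a jigr1 intron, had 4590 and 4322 CPM, then 5859 and 6382 CPM (0.46 ± 0.486), while miR-92b-3p of the same gene did not separate. miR-2a-3p, of the family that targets proapoptotic genes, had 2641 and 2981 CPM, then 3674 and 6063 CPM (0.79 ± 0.442), and overlapped with library size alone. miR-92a and miR-92b, and the miR-2 copies, are close in sequence, so the division of reads between them is uncertain.

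On the lower side, the abundant arm was miR-184-3p, known from oogenesis and early patterning. It had 28407 and 26082 CPM, then 21219 and 19146 CPM, without overlap, and a log2 fold change of -0.43 ± 0.308 (adjusted p = 0.624). miR-9b-3p was the other small shift, with 736 and 782 CPM, then 662 and 678 CPM (-0.18 ± 0.594). That arm rests on 17 to 21 counts per library, and counting error alone is wider than its shift.

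Larger lower values came from scarcer arms. miR-31a-5p had 61 and 36 counts, then 27 and 19 counts, which is 2641 and 1341 CPM, then 894 and 758 CPM (-1.26 ± 0.448, adjusted p = 0.190). It passed with DESeq2 (-1.44, adjusted p = 0.0459), and its adjusted p over the other alternatives ran up to 0.960. Without stage 2 replicate 1 its value was -0.70 with the same arms and scaling. miR-31b-5p, of the same family, was in the higher group above. miR-124-5p, of the nervous system miRNA miR-124, had 41 and 39 counts, then 4 and 23 counts (-1.64 ± 0.700, adjusted p = 0.213). Both stage 3 libraries were lower, but replicate 1 far more than replicate 2. With the same arms and scaling the value was -0.81 without replicate 1 and -3.58 without replicate 2. The other arm of this hairpin, miR-124-3p, had 0 and 2 counts, then 0 and 2, too few to compare. miR-958-5p had 21 and 7 counts, then 1 and 0, and the pooled ratio was 0.0323 (counting interval 0.000789 to 0.195; edgeR adjusted p = 0.191). It passed in edgeR without the filter on low counts (adjusted p = 0.00467), and its adjusted p over the alternatives ran up to 0.752.

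**Figure D3:**
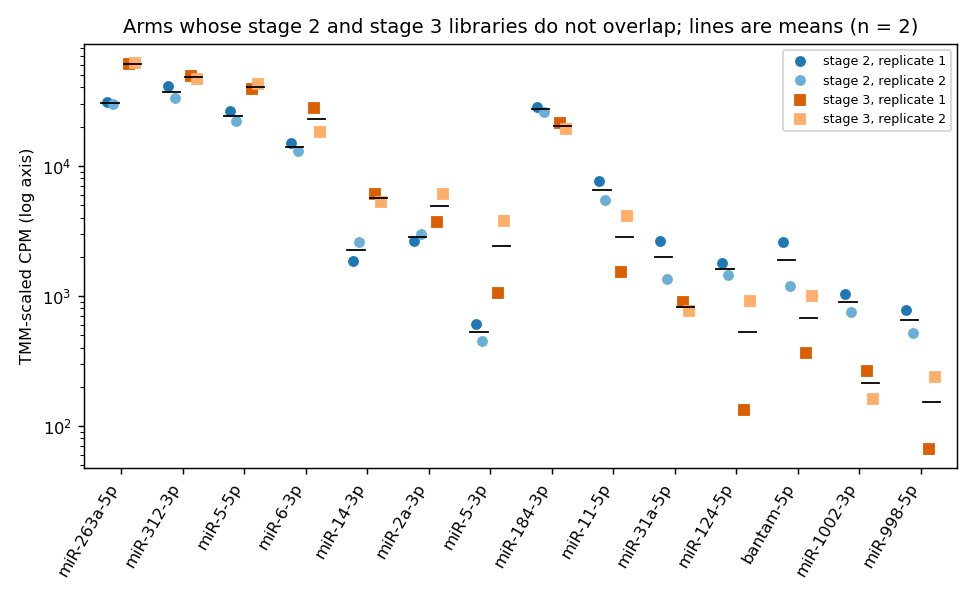
Level of 14 arms whose stage 2 and stage 3 libraries did not overlap, in TMM-scaled CPM on a log axis, with 1 point per library and a line at each stage mean (n = 2). miR-263a-5p shows tight replicates about 2.02-fold apart, while miR-5-3p, miR-11-5p, miR-124-5p and bantam-5p are spread widely between the stage 3 replicates.

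The third question set guide against passenger arms. Here the arm of a hairpin with more counts over all 14 libraries is called the guide and the other the passenger, whatever their names, and copies of a hairpin are summed. The scaling of a library cancels in the share of reads that a passenger takes from its own hairpin. Over 211 hairpins with both arms listed, passengers took 1.65% and 1.53% of reads in stage 2 and 0.956% and 1.22% in stage 3. Without miR-286, whose guide dominates the sum, this was 3.87% and 3.57%, then 2.27% and 2.85%. Both stage 3 libraries were below both stage 2 libraries either way. Such a sum also moves with the mix of hairpins, and 1 passenger weighed heavily in it. miR-11-5p gave 176 of 540 and 146 of 510 passenger counts in stage 2, then 46 of 460 and 103 of 431 in stage 3. In stage 1 the share without miR-286 was 2.72% and 2.99%, and in stage 4 it was 3.52% and 4.69%.

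Of 17 tested passenger arms with counts, 7 were without overlap and lower and 2 higher (41.2% and 11.8%). Of 61 guide arms, 6 were lower and 21 higher (9.84% and 34.4%). The median log2 fold change was -0.78 for passengers and 0.21 for guides. This difference between the kinds of arm was not tested, and passengers are scarcer, so their values scatter more.

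Within hairpins, the change in the ratio of passenger to guide was tested with edgeR's differential usage test in 35 hairpins with at least 20 counts of each arm over the 14 libraries. It called 0 (0%), with a lowest adjusted p of 0.120. At the unadjusted p it gave 7 of the 25 hairpins that had reads in each of the 4 libraries and a passenger count in at least 1 of them (28%), 5 with a lower and 2 with a higher passenger share in stage 3. A quasi-binomial model gave 0 calls and 2 at the unadjusted p. The passenger share of the 4 libraries was without overlap and lower in 11 of 25 hairpins (44%) and higher in 3 (12%). With only these 4 libraries in the fit, miR-1002 and miR-263a passed (both adjusted p = 0.0376), and without stage 3 replicate 2 miR-11 (0.0256) and miR-14 (0.0398) did. Without stage 3 replicate 1 the log2 changes of miR-11 and miR-14 were -0.40 and -1.25, and 0 hairpins passed.

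miR-11 lies in an intron of E2f1 (dm6 chromosome 3R, 21622497 to 21622571, minus strand). Its passenger arm miR-11-5p had 176 and 146 counts, then 46 and 103 counts, while its guide miR-11-3p had 553 and 568, then 853 and 469. The passenger took 24.1% (exact 95% interval 21.1 to 27.4) and 20.4% (17.5 to 23.6) of the reads in stage 2, then 5.12% (3.77 to 6.77) and 18.01% (14.9 to 21.4) in stage 3. The stage 3 replicates differed far beyond counting error, and replicate 1 stood far below both stage 2 libraries while the interval of replicate 2 overlapped theirs. The log2 change of the ratio was -1.28 ± 0.552 (adjusted p = 0.198), but leaving out stage 3 replicate 1 gave -0.40 and leaving out replicate 2 gave -2.42.

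miR-998 lies in the same gene (21621879 to 21622021), and the order of its arms differed between the stages without passing the test. The arm named 5p had 18 and 14 counts in stage 2, then 2 and 6, and the arm named 3p had 5 and 6, then 11 and 12. The 3p share was 25.6% of pooled reads in stage 2 (exact 95% interval 13.5 to 41.2) and 74.2% in stage 3 (55.4 to 88.1). All 4 libraries are on their stage's side of an even split. The log2 change of the ratio was 3.03 ± 1.05 (adjusted p = 0.120). The pooled 3p share was 14.3% in stage 1, 43.6% in stage 4 and 12.5% to 27.8% in stages 5 to 7, so stage 3 was the highest of the 7.

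miR-1002 and miR-968 are neighbours on chromosome 2L (13747609 to 13747697 and 13747748 to 13747839, minus strand). The passenger arm of miR-1002, the 3p arm, had 24 and 20 counts, then 8 and 4, and the guide 41 and 68, then 128 and 64. The passenger share was 36.9% and 22.7%, then 5.88% in both stage 3 libraries, a log2 change of the ratio of -2.69 ± 1.02 (adjusted p = 0.120). For miR-968 the passenger had 3 counts in stage 2 and none in stage 3, where 41 guide reads allow a share of up to 8.60% (exact interval).

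For miR-263a and miR-14 the guide was higher while the passenger was not. miR-263a-3p had 12 and 10 counts, then 4 and 6, so its share went from 1.66% and 1.24% to 0.218% and 0.388% (log2 change -2.28 ± 0.811, adjusted p = 0.120). miR-14-5p had 8 and 8 counts, then 2 and 8, and its share went from 15.7% and 10.3% to 1.08% and 5.67% (-2.13 ± 0.808, adjusted p = 0.120). Neither pair of stages overlapped. In stages 4 and 5 the pooled share of miR-14-5p was 40.1% and 46.2%, above both stages described here.

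In other hairpins the passenger share was lower, higher or overlapped between stages. bantam-5p, the passenger of the growth-promoting bantam, took 6.95% and 4.39%, then 1.17% and 5.58%, so the libraries overlapped, although its level in CPM did not (2598 and 1192, then 364 and 997). Its guide bantam-3p had 34772 and 25971 CPM, then 30753 and 16873 CPM, and the log2 change of the ratio was -1.14 ± 0.659 (adjusted p = 0.399). Leaving out stage 3 replicate 1 gave -0.07, and leaving out replicate 2 gave -2.38. miR-996-5p took 51.4% and 50%, then 25.0% and 30.8% (-1.43 ± 0.849, adjusted p = 0.399). The hairpins miR-9b, miR-305, miR-2b, miR-8 and miR-2a were also lower without overlap, with log2 changes from -0.39 to -1.34, each with an adjusted p of at least 0.399. The passengers of miR-10 (8.10% and 8.18%, then 8.70% and 5.26%) and miR-4 (13.9% and 16.3%, then 16.8% and 14.7%) overlapped between stages. For miR-5 the passenger share was higher instead, from 2.25% and 1.98% to 2.65% and 8.25% (1.45 ± 0.701, adjusted p = 0.237), and the log2 change was 0.33 without stage 3 replicate 2.

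**Figure D4:**
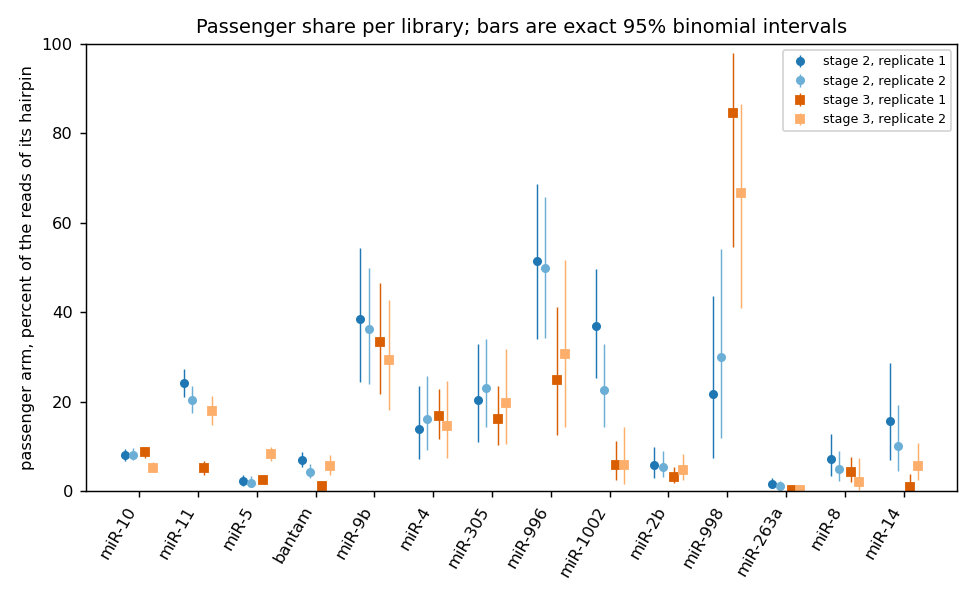
Share of the passenger arm in the reads of its hairpin, in percent, for 14 hairpins with at least 20 passenger counts in the 4 libraries (miR-286 left out), with exact 95% binomial intervals that cover counting error only. miR-1002, miR-996, miR-263a and miR-14 are lower in both stage 3 libraries and miR-998 is higher, while miR-11 and bantam are far lower in stage 3 replicate 1 than in replicate 2.

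The stage 3 replicates were less alike than those of stage 2. A chi-square test of counts over arms gave 2.04 per degree of freedom between the stage 2 libraries and 11.04 between the stage 3 libraries. The counts of neither pair were therefore copies of each other. The test cannot tell if the libraries of a stage came from the same RNA. Over the 50 arms above 500 CPM, the median absolute log2 difference was 0.20 between the stage 2 libraries and 0.54 between those of stage 3. Between stages it was 0.36 to 0.58. The lowest of these, 0.36, set stage 3 replicate 2 closer to stage 2 replicate 2 than to its own replicate. By chi-square the order was the reverse, with 13.4 per degree of freedom for that pair against 11.04 within stage 3. The widest gap in stage 3 was miR-315-5p, a nervous system and Wingless-related arm, with 43 and 57 counts in stage 2 and 37 and 183 in stage 3 (1.09 ± 0.629, adjusted p = 0.405). Without stage 3 replicate 2 its value was -0.80.

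Described by lists, no group had an arm past the threshold. The miR-310 cluster, with 5 tested arms, had a median log2 value of -0.16 and 1 arm without overlap. It took 4.6% and 4.26% of counts, then 4.37% and 4.69%. The 4 tested Hox-region arms had a median of -0.06 and none without overlap. The 4 arms hosted in E2f1 and Cdk2 had a median of -0.67, with 2 lower without overlap, miR-11-5p and miR-998-5p, and 2 within 2-fold. Of 8 tested arms of the miR-2, miR-13, miR-11 and miR-6 group, 4 were higher and 1 lower without overlap (median 0.54). The higher ones include miR-2c-5p, which had 2 to 7 counts per library. The 10 epithelial and gut arms with counts had 3 higher and 2 lower (median 0.13), and the 7 sensory organ arms 1 higher and 2 lower (median -0.08). Of 6 growth-related arms, those of bantam, miR-8 and miR-14, 1 was higher and 2 lower (median -0.56), and of 5 arms of the miR-9 family and its cluster 1 was higher and 1 lower (median 0.12). The 3 nervous system arms had 1 higher and 1 lower (median 1.09). The testis-enriched clusters had 69 counts in the 4 libraries and 1 tested arm. The median over all 78 arms was 0.10, and 46.2% of them were without overlap.

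Some arms counted in later stages had no read here. miR-277-3p, miR-284-5p, miR-375-3p, miR-87-5p, miR-957-3p and both arms of miR-927 had 0 counts in all 4 libraries. A count of 0 allows a share of up to 0.00454% of stage 2 and 0.0036% of stage 3 (3 counts of the pooled total). From stage 4 on they had between 132 and 1029 counts each. They are the tested arms without a read here and passed the filter only through those later stages, so their later counts are no result. Of 251 arms with a count in the 14 libraries, 157 had a read in these 4, so untested arms without a read are not listed.

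Against the rest of the time course, the arms that set these stages apart took different places. miR-263a-5p had 5450 CPM in stage 1 and between 58784 and 83979 CPM in stages 4 to 7. On this scale stage 3, at 60934 ± 643 CPM (SD, n = 2), was within the range of the later stages. Stage 2, at 30162 ± 763 CPM, was below that range. The TMM factors were 0.629 and 0.713 in stage 3 and between 1.16 and 1.57 in stages 4 to 7. As plain shares of the library, both stage 3 libraries were below every library of stages 4 to 7 for this arm. miR-5-5p and miR-5-3p had their highest stage mean in stage 3. For miR-5-3p that mean came mostly from replicate 2, with 3789 CPM against 1059 CPM in replicate 1. miR-31a-5p, at 826 ± 96.1 CPM in stage 3, had 22285 CPM in stage 4. miR-124-5p had 1614 CPM in stage 2, 525 CPM in stage 3 and 1615 CPM in stage 4, and bantam-5p had 1895, 681 and 2635 CPM. Both had a lower mean in stage 3 than on either side, though the stage 3 replicates of each lay far apart. miR-11-5p had its highest mean, 6531 CPM, in stage 2.

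**Figure D5:**
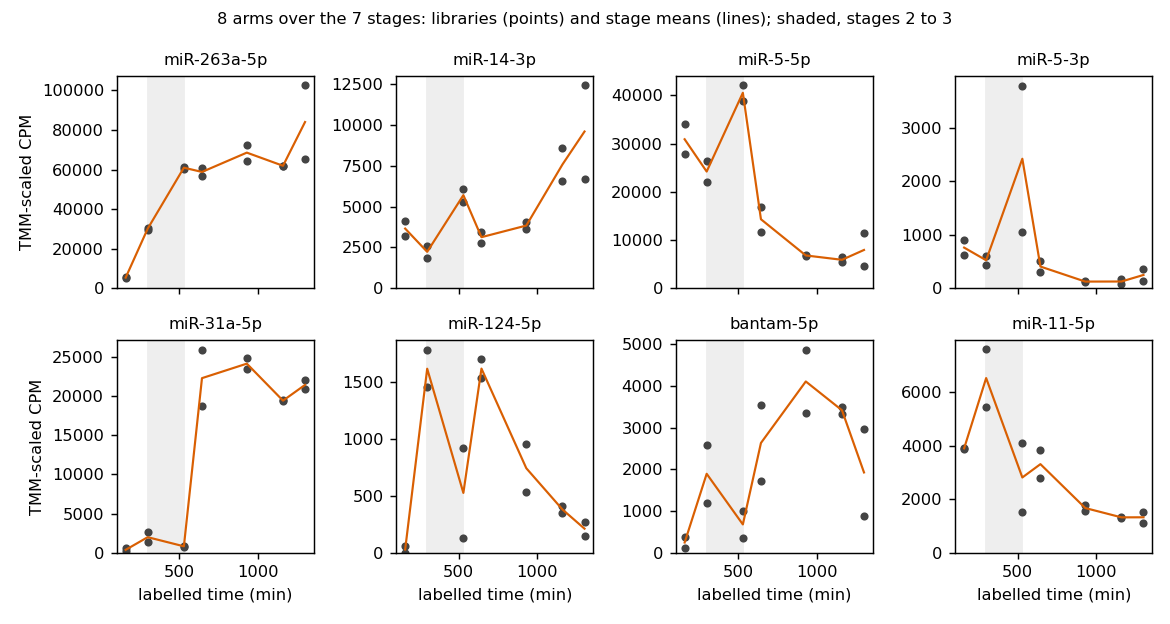
TMM-scaled CPM of 8 arms against the labelled time in min, with 1 point per library and a line through the stage means (n = 2), and the interval from stage 2 to stage 3 shaded. On this scale miR-263a-5p reaches in stage 3 the level of later stages, which it does not as a plain share of the library. The stage means of miR-5-5p and miR-5-3p peak in stage 3, for miR-5-3p mostly through replicate 2. Those of miR-124-5p and bantam-5p are lower there than in the stages on either side.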

How the data were processed

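Per the labels' protocols, TRIzol was used to isolate total RNA, and libraries were made with a small RNA kit in reduced reaction volumes. The deposited table holds the authors' raw read counts per mature miRNA arm. Per the submitters' processing notes, Bowtie, HTSeq and the build dm6 were used. How reads matching several loci were counted is not given in the sources used here. Columns were matched to libraries by title and replicates were numbered in accession order.

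The tests used edgeR 4.0.16 in R 4.3.3 (filterByExpr by stage, TMM, glmQLFit with 1 coefficient per stage on all 14 libraries, 7 residual degrees of freedom). The SE of a log2 fold change came from it and the F statistic. Passenger and guide arms were compared with diffSpliceDGE. DESeq2 1.42.0 was an alternative. The labels' protocols name no molecular identifiers, so binomial intervals (exact, 95%) and floors cover counting error only. The code was tested on simulated data. Figures used matplotlib 3.10.9.

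Members and lists were chosen with earlier results of these data known. Named arms were the most abundant ones within 2-fold (10 at most), small shifts above 500 CPM (6 per direction), the 5 most abundant, the 8 hairpins with most passenger counts and up to 4 arms per list. Named after their values were seen were miR-958-5p, miR-31a-5p, miR-31b-5p, miR-1010-3p, miR-276b-3p, the arms with 0 counts and the hairpins miR-998, miR-1002, miR-968, miR-263a, miR-14, miR-2b, miR-8 and miR-2a. Hairpin positions came from an Ensembl annotation in dm6 coordinates, in which 69 of 70 hairpin names matched. Alternatives were other scalings, filters, DESeq2, a fit on the 4 libraries and each library left out.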

Additional observations from a re-analysis of the deposited data

How the results depend on the processing

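No paired analysis was possible because the labels carry no replicate numbers. Arms whose libraries did not overlap and were lower numbered 21 with DESeq2 size factors, 21 when scaled to total counts only, 20 with miR-286-3p left out of TMM and 31 without the filter on low counts, against 13. Higher ones numbered 14 with miR-286-3p left out and 3 with a mean count of at least 50, against 23. Arms within 2-fold numbered 3 with miR-286-3p left out, 4 without the filter and 3 with a mean count of at least 50, against 9. The 3 with a mean count of at least 50 included 0 of these 9 arms. Arms at the unadjusted p numbered 7 with a mean count of at least 50, and 3 to 18 with a library left out, against 14. Calls appeared without the filter (1 lower, miR-958-5p), with only the 4 libraries (1 higher, miR-263a-5p) and with DESeq2 (1 higher and 1 lower). Hairpins called numbered 2 with only the 4 libraries and 0 to 2 with a library left out. Leave-one-out with the same arms and scaling was added after seeing the data.

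With a library left out and the filter and scaling redone, the median of all arms moved by -0.75 to 0.01. Among the named small shifts, log2 fold changes then turned sign for miR-9c-5p (-0.18 to 0.30), miR-312-3p (-0.31 to 0.31), miR-92a-3p (-0.13 to 0.30) and miR-6-3p (-0.27 to 0.89). With the same arms and scaling these ran from 0.39 to 0.48, 0.22 to 0.54, 0.39 to 0.52 and 0.38 to 0.98, and none turned. miR-283-5p turned when redone (-0.29 to 0.71) but not with the same arms and scaling (0.35 to 0.81). miR-315-5p turned in both kinds of fit (-0.80 to 1.23 redone, -0.70 to 1.87 with the same arms and scaling), and bantam-3p (-1.49 to -0.08 redone) with the same arms and scaling (-0.85 to 0.018). Each arm within 2-fold also turned, in either or both kinds of fit. In both, miR-11-3p (-0.92 to 0.23 redone, -0.27 to 0.32 otherwise), miR-8-3p (-1.44 to 0.13, -0.79 to 0.23) and miR-10-3p (-1.31 to 0.09, -0.67 to 0.19) did. For miR-286-3p this was so only when redone (-0.57 to 0.20). The passenger to guide ratio, in which scaling cancels, turned for miR-4 (-0.046 to 0.25) and miR-10 (-0.67 to 0.11). The cause was not tested for miR-315-5p, bantam-3p, the arms within 2-fold or any of these hairpins. One count is worth 33.1 to 43.3 CPM in these libraries, which limits what can be read from scarce arms.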
